A study of Mus musculus with 43 samples.

Results

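Clu encodes clusterin, a secreted glycoprotein. Its row was read by symbol in the 3 bulk expression tables, where it is 1 of 23951 genes, and in the gene list of the 7 single-cell libraries, where it is 1 of 54307 rows. Both sources are from mice. Bulk RNA-seq covered primary intestinal organoids of wild-type C57BL/6 mice in 6 groups of 3 libraries: 3 conditions, each with and without TGFB1. The conditions were no irradiation with harvest at day 7 (D7), and a dose of 4 Gy at day 4 with harvest either at D7 or at day 11 (D11). Organoids in each of them had received either vehicle or 2 ng/mL TGFB1 for 24 h from day 6, so the D11 organoids were collected days after the exposure had ended. Organoids are epithelial cultures without the surrounding stroma. Single-cell RNA-seq covered 4 libraries of organoids irradiated with 4 Gy on day 4 and collected on day 8, treated with 1 ng/mL TGFB1 for 6, 15 or 24 h or with vehicle for 24 h (called 0 h below). It also covered 3 libraries of living Ki67-RFP+ cells sorted from small intestinal crypts of Mki67tm1.1Cle/J mice, in which RFP marks cycling cells: 1 from a littermate that was not irradiated and 2 taken 56 h after 12 Gy to the mice. Irradiated crypts were passed through a wider strainer than the others, so irradiation and strainer cannot be told apart in these 3 libraries.

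Clusterin acts as an extracellular chaperone that binds misfolded proteins, travels with lipoproteins as apolipoprotein J, and restrains the terminal complement complex. Cells take it up through receptors of the LDL receptor family. In the intestine, Clu is known as the marker of a rare epithelial cell, the revival stem cell, that appears after radiation damage and depends on YAP, the transcriptional coactivator of the Hippo pathway. TGFB1 is a secreted cytokine that signals through SMAD transcription factors.

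The 18 bulk libraries summed to between 447728 and 621996 FPKM (fragments scaled for transcript length and for the library's mapped fragments), with 11040 to 11361 genes above 1 FPKM. Their read depth is unknown. The labels number the replicates but do not say that they came from separate cultures, so the tests measure the spread between these libraries, which may be technical. The single-cell libraries kept 699 to 4283 cells with median depths of 6709 to 14399 UMIs (unique molecular identifiers, each standing for 1 captured RNA molecule). Cell barcodes were shared in 2 pairs of libraries, with 1 barcode each. Summed markers of immune, mesenchymal and endothelial cells reached 41.3, 4.35 and 15.9 CPM (UMIs of the genes scaled to the library's total UMIs) at most in any of the 7 libraries, and those of tuft and enteroendocrine cells, rare types of the epithelium, 10.7 and 175 CPM.

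Clu rose with TGFB1 in all 3 bulk comparisons, to a place among the most abundant transcripts. In D7 organoids without irradiation, Clu stood at 48.5, 43.2 and 51.3 FPKM with vehicle and at 1806, 1765 and 1732 FPKM with TGFB1. The groups did not overlap, and the lowest TGFB1 library was 33.8 times the highest vehicle library. The means were 47.7 ± 4.11 and 1768 ± 37.2 FPKM (SD, n = 3 each), a 37.1-fold rise, or a log2 change of 5.19 (SE 0.054) on the scale of FPKM + 1. limma's adjusted p was 2.52e-12. Of the 11330 genes tested there, 68.2% were called (33.3% higher, 34.9% lower), so the call itself sets Clu apart little, while only 6 genes had a larger rise. In bulk libraries a change in the number of cells that carry a transcript and a change in its amount per cell cannot be told apart.

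In irradiated D7 organoids, Clu stood at 186, 179 and 208 FPKM with vehicle and at 3839, 3912 and 4154 FPKM with TGFB1. Again every TGFB1 library lay above every vehicle library, and the 3 libraries of each group lay close together. The means were 191 ± 15.3 and 3968 ± 165 FPKM (SD, n = 3 each), a 20.8-fold rise (log2 change 4.37, SE 0.056, limma adjusted p 1.07e-11). Among the 11258 genes tested, 75.5% were called (35.8% higher, 39.7% lower), and 12 genes rose more than Clu.

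At D11, Clu stood at 72.1, 78.2 and 85.4 FPKM in the organoids that had received vehicle and at 4352, 3563 and 3900 FPKM in those that had received TGFB1. The high level was thus still present in organoids collected after the 24 h exposure. The means were 78.6 ± 6.68 and 3938 ± 396 FPKM (SD, n = 3 each), a 50.1-fold rise (log2 change 5.63, SE 0.12, limma adjusted p 2.18e-09). Here 63.9% of 11479 genes were called (32.3% higher, 31.6% lower), and 4 genes rose more. An exact two-sided permutation test of the FPKM values gave p = 0.1 in each of the 3 comparisons, the smallest that 3 libraries against 3 allow.

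**Figure D1:**
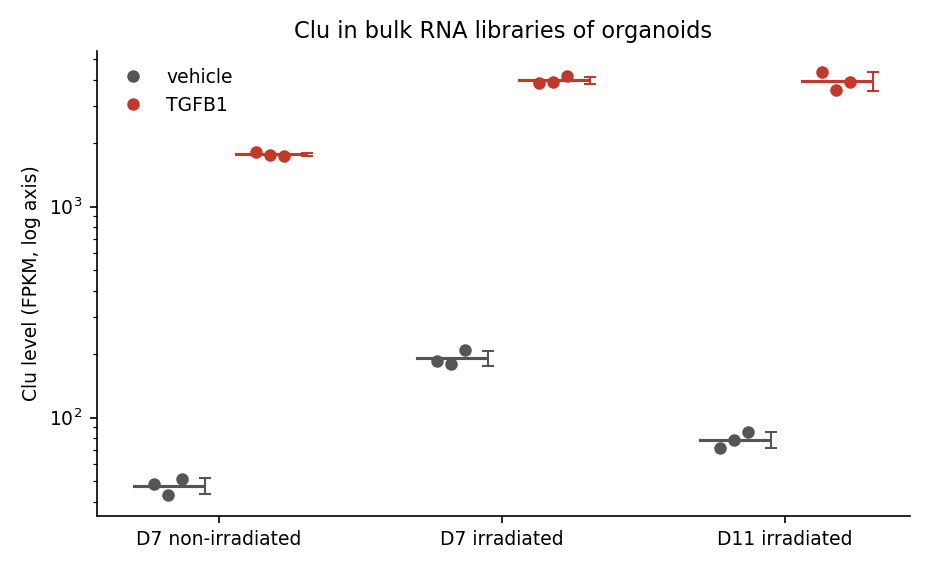
Clu level in FPKM (log axis) in the 18 bulk libraries, by condition and treatment. Points are libraries, horizontal lines are group means and bars show ±1 SD (n = 3); every TGFB1 library lies above every vehicle library, and the D7 and D11 irradiated TGFB1 groups overlap.

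The 6 groups were ordered by level across tables that were normalised separately, so the order is given without a test. The lowest was D7 vehicle without irradiation, followed by D11 irradiated vehicle at 1.65 times that mean and D7 irradiated vehicle at 4.01 times that mean. These 3 vehicle groups did not overlap. The 3 TGFB1 groups stood above them, with D7 without irradiation below the irradiated ones. The D11 and D7 irradiated TGFB1 groups spanned 3563 to 4352 and 3839 to 4154 FPKM, so their levels did not differ beyond their spread. By FPKM, Clu ranked between 1929 and 2309 of 23951 genes in the D7 vehicle libraries without irradiation and 25 or 26 with TGFB1. In irradiated D7 libraries it went from ranks of 438 to 517 to ranks of 10 to 12. In the D11 libraries it went from ranks of 1115 to 1217 to ranks of 2 to 4, and made up 0.752 to 0.940% of the summed FPKM there.

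The size of the rise differed between conditions. With irradiation the log2 rise at D7 was 0.82 smaller than without (difference −0.82, SE 0.087, limma adjusted p 3.10e-06), where 53.1% of 11411 genes had a called difference (25.3% positive, 27.8% negative). The vehicle means beside it were 47.7 FPKM without and 191 FPKM with irradiation. At D11 the log2 rise was 1.26 larger than in irradiated organoids at D7 (SE 0.13, limma adjusted p 2.01e-06), where 64.5% of 11456 genes had a called difference (31.5% positive, 33% negative). For irradiated organoids at D7 and at D11 the vehicle means were 191 and 78.6 FPKM and the TGFB1 means 3968 and 3938 FPKM. Quantile normalization moved the differences to −1.30 and 2.16.

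Among the genes with no library at 0 FPKM, those that rose more than Clu differed from table to table. At D7 without irradiation they included Ctrb1 (log2 change 7.01), which encodes a chymotrypsinogen, Gkn3 (5.26), a gastrokine, and Lama3 (5.24), a laminin chain. In irradiated D7 organoids they included Cym (7.42), which encodes the milk-clotting protease chymosin, the peptide hormone gene Pyy (7.34) and Ctrb1 (5.20). At D11, Isx (6.17), an intestinal homeobox factor, and Krt4 (5.71), a keratin, preceded Clu. All of these had limma adjusted p of at most 0.000119.

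Clu lies on mouse chromosome 14 in the RefSeq annotation of GRCm38.p6, from which only the gene order is used here, since the build behind the expression tables is not stated per table. Its neighbours were looked at after the Clu values had been seen. The 3 nearest protein-coding genes on each side are Scara3, Ccdc25 and Esco2 on one side and Gulo, Adam2 and Ephx2 on the other. Scara3, a scavenger receptor gene next to Clu, went from a mean of 0.0340 to 2.21 FPKM with TGFB1 at D7 without irradiation (log2 change 1.63, limma adjusted p 4.23e-08), from 0.105 to 1.52 FPKM in irradiated D7 organoids, where it was below the filter and not tested, and from 0.156 to 9.17 FPKM at D11 (3.12, limma adjusted p 9.81e-08). Ccdc25 rose by 0.51, 0.33 and 0.74 log2 units in the same order (limma adjusted p at most 0.000102). Esco2, a cohesin acetyltransferase of S phase, fell by 0.51 and by 1.47 at D7 and rose by 0.40 at D11 (limma adjusted p at most 0.00615). Ephx2, an epoxide hydrolase gene, changed by −0.24 (limma adjusted p 0.000181), 0.03 (limma adjusted p 0.510) and −1.28 (limma adjusted p 3.47e-06). Gulo and Adam2 had group means of at most 0.195 FPKM. No neighbour reached the abundance of Clu, and those tested did not move in one direction.

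The genes whose pattern over the 6 bulk groups lay nearest to that of Clu were found among 10822 genes by the root mean square distance of their group means on the log2 scale, after centring each gene. Clu itself varied by 2.63 log2 units around its mean over the groups on this measure, and the median gene lay 2.66 away. The closest was Anxa8, an annexin gene, at a distance of 0.30, followed by Pmepa1 (0.65), which encodes a TGFB-induced brake on SMAD signalling, and Ctse (0.66), which encodes the protease cathepsin E. Anxa8 stood at means of 1.92 and 71.5 FPKM (D7 without irradiation), 5.19 and 173 FPKM (D7 irradiated) and, at D11, 0.850 to 2.57 FPKM against 113 to 150 FPKM over the libraries, with vehicle and TGFB1. As for Clu, the irradiated vehicle group of D7 was highest among the vehicle groups, while the other vehicle groups overlapped, unlike those of Clu. Slc4a11 (0.75), a membrane transporter gene, P2rx2 (0.80), an ATP-gated channel gene, and Thbs1 (0.89), which encodes thrombospondin, came next. Sptssb (0.90), Prkcdbp (0.99), Dok2 (0.99) and Mcpt2 (0.99) completed the 10. These genes were picked for their likeness, so no test is given, and with a pseudocount of 0.1 FPKM 5 of the 10 stayed among the nearest 10.

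Genes for the partners of clusterin changed far less than Clu. Of 9 receptor genes, 6 passed the filter on low values, and 3 of the 6 rose and 2 fell with TGFB1 at D7 without irradiation, 1 rose and 3 fell in irradiated D7 organoids, and 2 rose and 3 fell at D11. Over all genes tested 33.3, 35.8 and 32.3% rose and 34.9, 39.7 and 31.6% fell, so these counts lay near the background. Their median log2 changes were 0.04, −0.05 and −0.45, against −0.02, −0.03 and 0.01 over all genes tested. Scarb1, the HDL receptor gene, fell in all 3 comparisons (log2 changes −0.47, −0.11 and −1.14), as did Sorl1, a sorting receptor gene (−0.24, −0.51 and −0.96). Lrp8, which encodes a receptor for apolipoprotein E and clusterin, rose at D7 without irradiation and at D11 (0.47 and 1.14) and fell in irradiated D7 organoids (−0.59). Lrp1, a large endocytic receptor gene, changed by 0.14, 0.19 and −1.31, and the first of these calls was lost with quantile normalization (adjusted p 0.0603).

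Clusterin is also an apolipoprotein, and the other apolipoprotein genes did not all rise with it. Of the tested ones, 2 rose and 4 fell of 6 at D7 without irradiation, 4 rose and none fell of 7 in irradiated D7 organoids, and 1 rose and 2 fell of 7 at D11, with medians of −0.79, 0.69 and −0.30 (over all genes −0.02, −0.03 and 0.01). Over all genes 33.3, 35.8 and 32.3% rose and 34.9, 39.7 and 31.6% fell. Apob, the structural protein of chylomicrons, rose in all 3 (0.86, 1.71 and 0.74). Apoa1, the main protein of HDL, fell at D7 without irradiation (−0.67) and rose in irradiated D7 organoids (1.51). At D11 it changed by −0.07, with an SE of 0.33 (limma adjusted p 0.870). Apoc3, which slows the clearance of lipoproteins, fell without irradiation (−1.34) and at D11 (−1.75). Apoa4, an apolipoprotein of chylomicrons, rose at D7 without and with irradiation (0.44 and 1.17). Apoc2, the activator of lipoprotein lipase, fell without irradiation (−0.91) and rose with it (0.69), and at D11 changed by −1.17 (limma adjusted p 0.0761). Apoa2, an HDL protein gene, fell without irradiation (−0.91), and its changes of −0.30 and −0.30 in the other comparisons did not pass the test.

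Of 26 complement genes, only 4 or 5 passed the filter in each table. Among those tested, 3 rose and 1 fell of 5 at D7 without irradiation, 4 rose of 4 in irradiated D7 organoids, and 1 rose and 4 fell of 5 at D11. Over all genes 33.3, 35.8 and 32.3% rose and 34.9, 39.7 and 31.6% fell. Cfi, the protease that inactivates C3b and C4b, was the one that rose throughout, from a mean of 6.28 to 59.9 FPKM, from 12.2 to 52.6 FPKM and from 6.73 to 34.7 FPKM (log2 changes 3.06, 2.02 and 2.22). Cd55, which protects cells from complement, rose at D7 with and without irradiation (1.46 and 1.14) and fell at D11 (−0.24). C1ra, a protease of the first complement component, was tested at D11 only, where it fell (−2.22). C2, a protease of the classical pathway, rose at D7 without and with irradiation (0.37 and 1.37). C8g, a chain of the terminal complex, fell at D7 without irradiation (−0.58) and at D11 (−1.28). Cfb, a protease of the alternative pathway, rose in irradiated D7 organoids (0.43) and fell at D11 (−0.36), and changed by 0.04 without irradiation (limma adjusted p 0.375).

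Clusterin shares its chaperone function with proteins inside the cell, and most genes for those of the endoplasmic reticulum fell at D7, while Clu rose. Of 19 genes for chaperones and stress factors of the endoplasmic reticulum, 2 rose and 13 fell without irradiation, 2 rose and 16 fell with irradiation, and at D11 14 rose and 2 fell (medians −0.22, −0.37 and 0.52). Over all genes 33.3, 35.8 and 32.3% rose and 34.9, 39.7 and 31.6% fell. With quantile normalization the first of these counts was 1 up and 15 down. The test of the difference between D11 and irradiated D7 organoids was passed by 14 genes in the positive and by 1 in the negative direction, against 31.5 and 33% of all genes. Hsp90b1, which encodes the chaperone GRP94, changed by −0.36, −0.92 and 0.41, Pdia6, a disulfide isomerase gene, by −0.27, −0.97 and 0.35, and Hyou1, a large chaperone gene, by −0.35, −0.70 and 0.71, all called. Sdf2l1 (−0.24, −0.92 and 0.91) and Creld2 (−0.18, −0.44 and 1.10), both induced by stress of the reticulum, were called in the same directions. Dnajb9, a cochaperone gene, differed: it rose in irradiated D7 organoids (0.61) and at D11 (0.46), and changed by −0.02 without irradiation (limma adjusted p 0.664). P4hb, another disulfide isomerase gene, fell at D7 in both (−0.56 and −0.33) and at D11 (−0.39), where the call was lost with quantile normalization (adjusted p 0.0959).

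Heat shock genes lay near the background at D7, with 5 up and 4 down of 13 tested without irradiation and 6 up and 7 down of 14 with it. At D11 10 rose and 1 fell of 14. Over all genes 33.3, 35.8 and 32.3% rose and 34.9, 39.7 and 31.6% fell. The 4 that fell without irradiation became 2 with median-ratio scaling and 5 with quantile normalization. Hspa1b, an inducible HSP70 gene, rose in all 3 comparisons (1.23, 2.34 and 2.60), as did its near-identical neighbour Hspa1a (1.27, 1.69 and 1.28). Reads of these 2 copies can be assigned to either, so their separate values are uncertain. Hspb1, a small heat shock protein gene, rose in irradiated D7 organoids and at D11 (1.29 and 2.30), and Cryab, another, by 0.88 and 2.81, while its change without irradiation was −0.09 (limma adjusted p 0.527). Hsph1 fell in irradiated D7 organoids (−0.51) and rose at D11 (1.31).

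Genes of the pathways that are known to act on Clu mostly rose with it. Of 20 transcription factor genes of the TGFB, YAP, AP-1, MYC and stress pathways, 19 were tested, and 16 rose and none fell at D7 without irradiation, 14 rose and 1 fell in irradiated D7 organoids, and 13 rose and 1 fell at D11 (medians 0.55, 1.14 and 0.37, over all genes −0.02, −0.03 and 0.01). Over all genes 33.3, 35.8 and 32.3% rose. Fosl1, an AP-1 subunit gene, rose by 2.25, 2.67 and 3.14, Tead4, which encodes a DNA-binding partner of YAP, by 2.09, 1.85 and 2.46, and Mycn by 2.26, 2.27 and 1.72. Fos rose by 1.76, 2.87 and 1.07. Egr1, an immediate early gene, rose at D7 without and with irradiation (0.29 and 1.32) and fell at D11 (−0.48).

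YAP target genes and other genes of regenerating epithelium rose almost without exception, as earlier results of these data had shown when the lists were chosen. Of 13 YAP targets tested, 13, 13 and 11 rose in the 3 comparisons, and Nuak2 fell at D11 (−0.47). Over all genes 33.3, 35.8 and 32.3% rose. The largest mean changes over the 3 comparisons were those of Ctgf (4.22, 2.68 and 4.09), a matricellular protein gene, Cyr61 (1.93, 3.38 and 1.76), Myof (2.15, 2.10 and 3.64), a membrane repair gene, and Ajuba (1.75, 2.64 and 2.45). Of 22 regenerative genes, 21, 20 and 19 rose, and Ccnd2, a D-type cyclin gene, fell at D7 without and with irradiation (−0.60 and −1.64). Anxa1, an annexin gene of repairing epithelium, had the largest mean change of the list (4.04, 3.75 and 4.59), ahead of S100a6 (2.90, 3.21 and 3.19), Anxa10 (2.65, 3.34 and 2.87) and Basp1 (2.03, 2.35 and 4.31).

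In single organoid cells Clu was higher at each later time of TGFB1. The level was 13.3 CPM at 0 h (95% interval 12.0 to 14.8, exact Poisson), 67.8 CPM at 6 h (65.0 to 70.7), 325 CPM at 15 h (318 to 332) and 773 CPM at 24 h (763 to 783). The intervals did not overlap, but there was 1 library per time, so they cover counting error only and no test between times is possible. The level was 5.09 times higher at 6 h than at 0 h, 4.79 times higher at 15 h than at 6 h, and 2.38 times higher at 24 h than at 15 h. In all, it was 58.1 times higher at 24 h than at 0 h (counting interval 52.4 to 64.4). Clu was the gene ranked 7528 by summed UMIs at 0 h and 199 at 24 h. Other measures moved with time as well: the median mitochondrial share was 2.95, 3.24, 4.34 and 4.85% of UMIs from 0 to 24 h. Between 0 and 24 h the summed markers went from 514 to 1039 CPM for Paneth cells (8 of 8 markers seen), from 30.9 to 175 CPM for enteroendocrine cells (10 of 11 and 11 of 11 seen, with Pyy at 0 UMIs at 0 h) and from 679 to 385 CPM for mitosis. Their part in the Clu levels was not tested.

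Among Ki67-RFP+ crypt cells, Clu was close to absent without irradiation, with 7 UMIs in 1846 cells (0.272 CPM, exact Poisson interval 0.109 to 0.560). The 2 irradiated libraries had 49.8 CPM (46.1 to 53.7) and 74.4 CPM (69.7 to 79.4), with 684 and 919 UMIs in 719 and 699 cells. These were 183 and 274 times the level without irradiation, with counting intervals of 87.1 to 386 and 130 to 576. The 2 irradiated libraries differed from each other by 1.49 times. With 1 library without irradiation, no test is possible. Markers of other cells moved with irradiation too. Immune markers summed to 12.0 CPM without irradiation and to 39.1 and 41.3 CPM after it, and were found in 1.63, 5.01 and 4.86% of cells. Enterocyte markers went from 4386 to 908 and 2711 CPM (12 of 12 seen) and Paneth markers from 2656 to 747 and 943 CPM (8 of 8 seen). Endothelial markers stood at 8.63, 15.9 and 15.9 CPM, with 3 or 4 of 6 seen and Cdh5 at 0 in each library. The part of these cells in the Clu level was not tested.

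The share of cells in which Clu was seen was compared at an equal depth, after thinning each cell at random to 2000 UMIs, which left out 1 cell at 0 h and 5 at 6 h. A Clu UMI was found in 2.08% of cells at 0 h (Clopper-Pearson 95% interval 1.60 to 2.67), 8.65% at 6 h (7.82 to 9.53), 26.7% at 15 h (25.1 to 28.4) and 41.2% at 24 h (39.1 to 43.2). Without thinning the shares were 6.28, 18.8, 46.1 and 70.5%. In crypt cells it was found in 3 of 1846 cells without irradiation (0.163%, 0.0335 to 0.474) and in 7.65% (5.81 to 9.84) and 9.87% (7.76 to 12.3) of cells after it, and without thinning in 0.379, 26.1 and 30.6%. The irradiated crypt shares thus lay near that of organoid cells at 6 h of TGFB1.

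**Figure D2:**
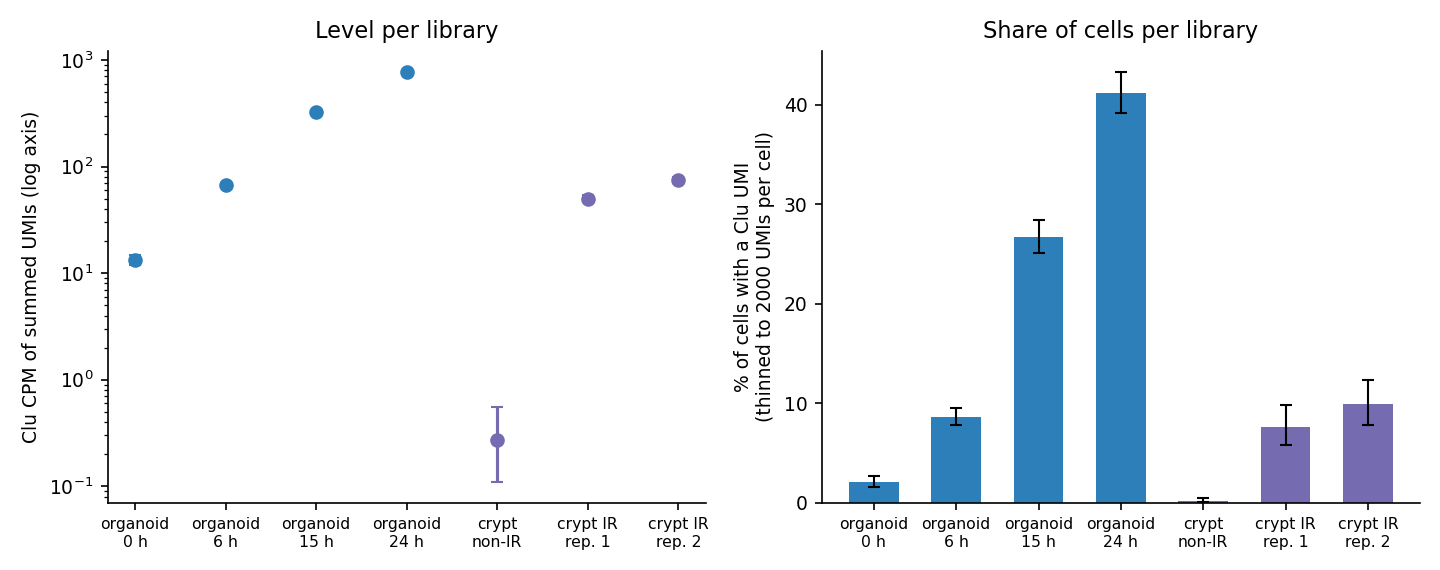
Left, Clu level per single-cell library in CPM of summed UMIs (log axis) with exact Poisson 95% intervals; right, percentage of cells with a Clu UMI after thinning each cell to 2000 UMIs, with Clopper-Pearson 95% intervals. Organoid libraries (blue) go from 13.3 CPM at 0 h to 773 CPM at 24 h, and crypt libraries (purple) from 0.272 CPM without irradiation to 49.8 and 74.4 CPM after it.

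How the higher level divided between more cells with Clu and more Clu per such cell depended on the depth used. After thinning, between 0 and 24 h, the share of cells was 19.8 times higher and the mean in cells with Clu went from 1.44 to 3.09 UMIs, 2.14 times higher. Without thinning the share was 11.2 times higher and the mean in cells with Clu went from 1.98 to 15.2 UMIs, 7.66 times higher. The mean in cells with Clu cannot lie under 1, and 49 of 61 such cells at 0 h and 261 of 370 at 6 h held exactly 1 thinned UMI. Cells with at least 5 thinned UMIs made up 0.0341% at 0 h, 0.257% at 6 h, 2.87% at 15 h and 8.07% at 24 h.

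Clu stayed uneven between cells at the last time. At 24 h, 58.8% of cells had 0 thinned Clu UMIs, 16.7% had 1, 16.4% had 2 to 4, 6.09% had 5 to 9, and 1.98% had 10 or more. The mean over all cells was 1.27 thinned UMIs. The variance was 5.47 times the mean at 24 h, 4.14 times at 15 h and 2.23 times at 6 h. At 0 h it was 3.43 times the mean, with 1 cell of 14 thinned UMIs as the highest. The tenth of cells with most Clu held 68.4% of the thinned Clu UMIs at 15 h and 58.9% at 24 h. The highest cell at 24 h had 27 Clu UMIs of 2000. In the irradiated crypt libraries the highest cells had 5 and 7, and the variance was 1.83 and 2.36 times the mean.

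**Figure D3:**
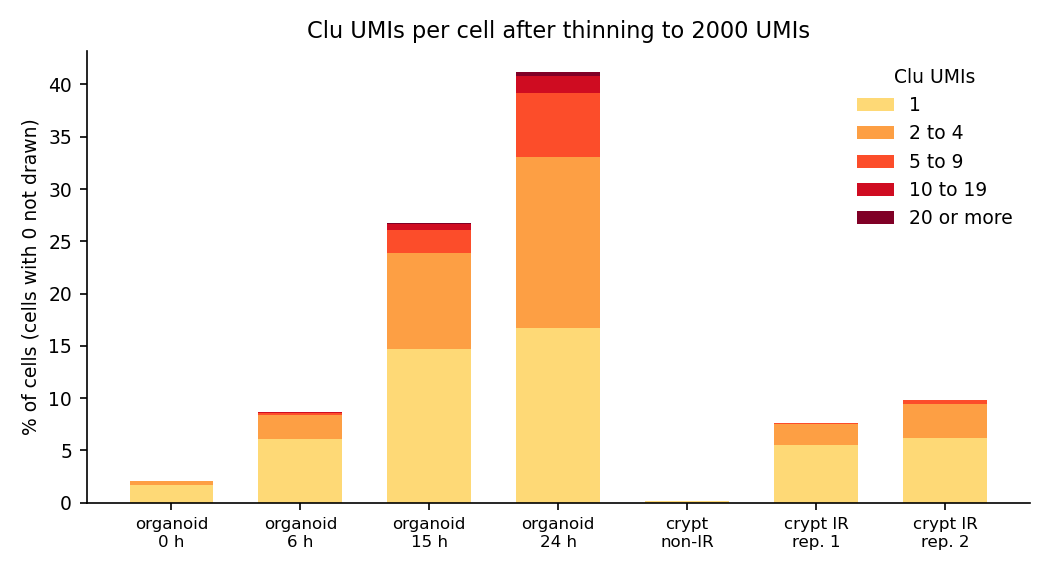
Percentage of cells by number of Clu UMIs after thinning each cell to 2000 UMIs, stacked for the 7 single-cell libraries, with cells at 0 left out. At 24 h of TGFB1 8.07% of cells have 5 or more, and in the irradiated crypt libraries 0.139 and 0.429% do.

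Organoid cells were grouped into 14 clusters without Clu among the genes used, and clusters were named only from marker lists. Clu was highest in cluster 6, called regenerative-like from Anxa1, Il1rn, Ly6d, Sprr1a and Msln, at 80.3, 224, 1303 and 1999 CPM at 0, 6, 15 and 24 h. The stem-like cluster 2, led among others by Lgr5, Olfm4 and Gkn3, followed with 43.6, 194, 588 and 1375 CPM. At 6 h the intervals of clusters 6 and 2 overlapped (201 to 250 and 177 to 212 CPM). At 24 h cluster 6 held 42.0% of the library's Clu UMIs in 12.4% of its cells, and cluster 2 held 29.9% in 17.3%. Mitotic-like clusters were lower, with 22.0 and 4.63 CPM at 0 h and 1138 and 556 CPM at 24 h (clusters 1 and 5). The goblet-like cluster 9, whose leading genes also include the enteroendocrine Chga and Chgb, had 12.1 CPM at 0 h and 432 CPM at 24 h.

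Enterocyte-like cells were looked at as a group assumed to hold little Clu, an assumption that was not tested. In the enterocyte-like cluster 0, Clu stood at 2.58, 6.56, 27.4 and 46.1 CPM over the 4 times, the last from 30 cells. In this cluster 0.579, 1.29, 5.85 and 3.33% of cells had a thinned Clu UMI, at median depths of 8053, 6495, 7862 and 15653 UMIs. The whole libraries, at medians of 8202, 6709, 7805 and 10441 UMIs, had the higher shares given above. Another enterocyte-like cluster, numbered 10, had 225 cells at 24 h with 56.8 CPM and a share of 10.2% (6.59 to 14.9). Clusters 12 and 13 also had enterocyte markers at median folds of 2.55 and 2.93, and cluster 11 stem markers at 2.34. None of those markers was among their leading genes, and these clusters were not named. Over the organoid libraries clusters 12, 13 and 11 had 25.6, 14.2 and 217 CPM of Clu.

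The summed Clu level was also compared between times cluster by cluster. Of the 13 clusters with cells at both times, 8 had at least 20 cells at every time. In all 8 the Clu level was higher at each later time, but not every step exceeded counting error. Intervals overlapped between 15 and 24 h in cluster 0 (23.1 to 32.1 and 28.2 to 71.2 CPM) and cluster 9 (328 to 446 and 376 to 493 CPM). They also overlapped between 0 and 6 h in cluster 3 (0 to 24.4 and 5.90 to 22.6 CPM). The thinned mean of cluster 0 was lower at 24 h than at 15 h (0.0333 against 0.0615 UMIs). In the 7 of these 8 clusters with more than 3 Clu UMIs at 0 h, the level at 24 h was 17.8 to 120 times that at 0 h. It was 24.9 times in the regenerative-like, 31.6 times in the stem-like and 51.7 and 120 times in the mitotic-like clusters. The low end of 17.8 times is that of the enterocyte-like cluster 0. The share of free RNA was not tested in any of these clusters. In the 8th, cluster 3, Clu went from 0 UMIs in 26 cells to 88.1 CPM. This cluster and cluster 8, which is led by short RNA genes and is 80.3% from the 24 h library, stayed unnamed.

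The 2 clusters richest in Clu differed in how it was spread. At 24 h 83.3% of stem-like cells had a thinned Clu UMI (79.2 to 86.9), with a mean of 2.54 UMIs per cell. In the regenerative-like cluster 62.0% had one (56.0 to 67.8), with a mean of 3.75. Fewer regenerative-like cells thus had Clu, at a higher mean. The stem-like cells had a median depth of 12018 UMIs and the regenerative-like cells 14422 UMIs, before thinning.

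**Figure D4:**
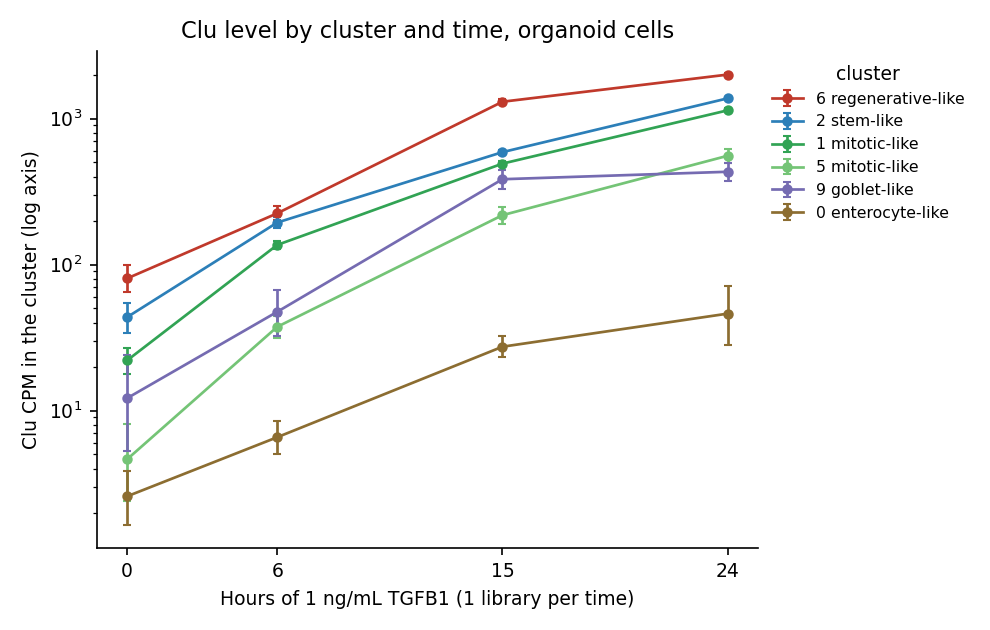
Clu level (CPM of summed UMIs, log axis) against hours of TGFB1 in 6 clusters of organoid cells, with exact Poisson 95% intervals and 1 library per time. At every time the regenerative-like cluster has the highest level of the 6 and the enterocyte-like cluster the lowest, and at 24 h they stand at 1999 and 46.1 CPM. At 6 h the intervals of the regenerative-like and stem-like clusters overlap (201 to 250 and 177 to 212 CPM).

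Crypt cells formed 11 clusters. The regenerative-like cluster 1, with Il1rn, Ly6a, Ly6d and Anxa3 among its leading genes, held cells of the irradiated libraries only and had 110 and 116 CPM of Clu in replicates 1 and 2. It held 74.6 and 82.4% of the Clu UMIs of these libraries in 35.3 and 48.4% of their cells. A thinned Clu UMI was found in 15.0 and 15.1% of its cells. The large unnamed cluster 2 of the irradiated libraries had 17.8 CPM (14.9 to 21.0) and 18.3 CPM (14.6 to 22.7). Within these 2 clusters the replicates thus lay closer together than over all cells, where they had 49.8 and 74.4 CPM. In the smaller unnamed cluster 5, led by short RNA genes, they had 45.7 and 73.2 CPM.

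Goblet-like crypt cells had 14.2 CPM (6.50 to 27.0) and 22.1 CPM (9.54 to 43.5) in the irradiated libraries, from 9 and 8 Clu UMIs. These intervals include the levels of the unnamed cluster 2, and the share of free RNA was not tested. None of the 38 and 20 goblet-like cells had a thinned Clu UMI, with Clopper-Pearson upper limits of 9.25 and 16.8%. Their median depths were 13458 and 15792 UMIs. The small enterocyte-like cluster 7 had no Clu UMI in 9 cells of replicate 1 and 95.1 CPM in replicate 2, from 26 Clu UMIs. There 3.12% of its 32 cells (0.0791 to 16.2) had a thinned Clu UMI. All its thinned Clu UMIs, a mean of 0.219 per cell, came from that share of cells, so 95.1 CPM need not hold for most of them. In the regenerative-like cluster of replicate 2 15.1% of cells had one, at a mean of 0.254. In the library without irradiation, 5 of the 7 Clu UMIs came from the stem-like cluster 0 of 722 cells (0.519 CPM, 0.168 to 1.21), which held 39.1% of the cells. The enterocyte-like cluster 4 of 445 cells had none (upper limit 0.580 CPM). The intervals overlap, so counts this small do not set these clusters apart.

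Clu was next compared between cells with and without a thinned UMI of other genes, library by library and as a description, since cells are not replicates. Some of the regenerative genes went with Clu and others did not. At 24 h, 81.9% of organoid cells with Anxa1 had Clu against 38.1% of those without, and their mean Clu was 5.67 times higher. That ratio was 9.51 at 6 h and 7.93 at 15 h. For Ly6d the ratio was 4.23, 8.23 and 4.88 at 6, 15 and 24 h, and for Il1rn, an interleukin 1 antagonist gene, 2.97, 5.15 and 3.28. These partners were rare: of the cells with Clu at 24 h, 13.9% had Anxa1, 12.6% had Il1rn and 3.72% had Ly6d. Anxa2, a more widely expressed annexin gene, had ratios of 1.74, 0.689, 1.26 and 1.52 from 0 to 24 h. At 6 h, 6.44% of cells with Anxa2 had Clu against 10.6% of those without, and the intervals did not overlap. Areg, an EGF receptor ligand gene, had ratios of 0.919, 0.748, 0.956 and 0.856, and Krt19, a keratin gene, 0.451, 0.816, 1.15 and 1.27. Sprr1a, a gene of the cornified envelope and one of the markers of cluster 6, had 4.52, 0.643, 1.91 and 1.37, with 47 to 84 cells that had it. Anxa2, Krt19 and Sprr1a thus had no constant relation to Clu over the 4 libraries. For Areg the ratio was under 1 in each. Of cells with Areg 5.90, 20.1 and 35.7% had Clu at 6, 15 and 24 h, against 9.45, 30.1 and 44.9% of those without. The intervals did not overlap at these times. At 0 h the shares were 2.26 and 2.00%, with intervals that overlapped.

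Stem and YAP target genes went with Clu as well. Cells with Olfm4, a stem cell gene, had 6.51 times the mean Clu of cells without it at 6 h, 3.02 times at 15 h and 2.07 times at 24 h. For Lgr5, the Wnt-dependent stem cell gene, the ratio was 4.22, 1.98 and 1.90, and for Ccn1, the YAP target also called Cyr61, it was 3.51, 3.03 and 2.71. Cells with the proliferation gene Mki67 had 1.48 to 1.68 times the mean Clu of those without over the 4 times. Fabp1, a fatty acid binding protein of enterocytes, went the other way, with ratios of 0.383, 0.349, 0.276 and 0.306 from 0 to 24 h.

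In irradiated crypt cells the partners of Clu differed in part from those in organoids. Ly6a, which encodes the surface antigen SCA-1, was found in 32.1 and 34.0% of the irradiated crypt cells, and cells with it had 1.60 and 2.35 times the mean Clu of those without. The intervals of the shares of cells with Clu overlapped in replicate 1 (7.13 to 15.6% with and 4.19 to 8.66% without Ly6a) and did not in replicate 2 (11.2 to 20.8% and 4.80 to 9.66%). In organoid cells it was found in too few cells to compare (18 of 2218 at 24 h). Anxa1 had ratios of 2.31 and 2.19 and Il1rn of 2.56 and 2.56. The intervals of the shares overlapped for Il1rn in both replicates. For Anxa1 they overlapped in replicate 1 (5.85 to 35.8% with, in 29 cells, and 5.43 to 9.44% without) and did not in replicate 2 (12.1 to 42.2% and 6.98 to 11.5%). Olfm4 had ratios of 0.561 and 0.770 in irradiated crypt cells, below 1 in contrast to every organoid library (1.52 to 6.51). Mki67 had 0.851 and 0.623, with intervals of the shares that overlapped in both replicates. The intervals of the shares with and without Olfm4 overlapped in both crypt libraries. They were 2.48 to 7.75 against 7.00 to 12.8% in replicate 1 and 5.58 to 15.1 against 7.55 to 12.8% in replicate 2. Areg had ratios of 2.08 and 0.905. In replicate 1, 14.0% of cells with Areg had Clu (8.99 to 20.4) against 5.87% without (4.08 to 8.15), and in replicate 2 the intervals overlapped. Anxa2 had ratios of 2.71 and 2.40, with intervals of the shares that overlapped in both replicates.

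**Figure D5:**
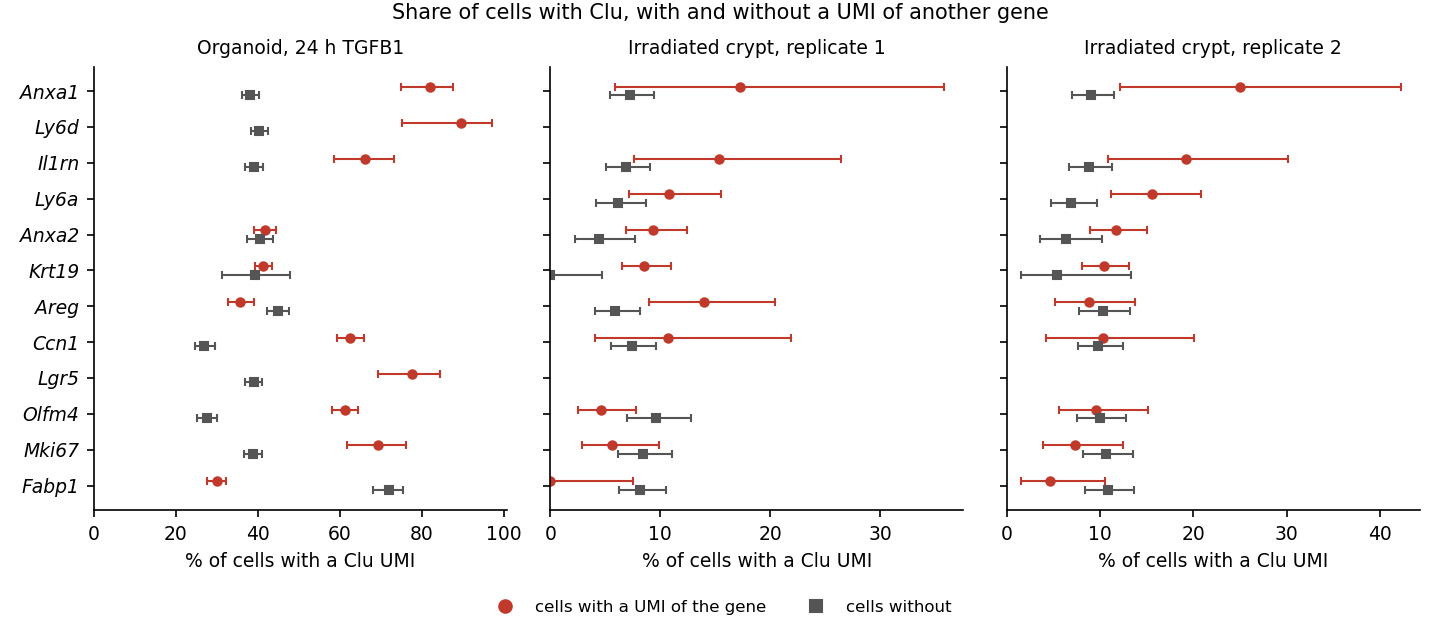
Percentage of cells with a Clu UMI among cells with (red) and without (grey) a UMI of each of 12 other genes, after thinning to 2000 UMIs, in 3 libraries, with Clopper-Pearson 95% intervals; genes in fewer than 20 cells on either side are not drawn. At 24 h in organoids, 81.9% of cells with Anxa1 and 29.9% of cells with Fabp1 have Clu.

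Over all genes found in at least 10% of the cells of each organoid library (2473 genes), Spearman correlations with Clu across cells were averaged over the 4 libraries of 2218 to 4278 cells. They share library, depth after thinning and the mixture of cell types, and no p is given. The highest were Slc12a2 (0.30), a chloride cotransporter gene of crypt base cells, Edn1 (0.29), which encodes endothelin 1, Ptma (0.29), Tmsb4x (0.28), an actin-binding peptide gene, and Sox4 (0.28), a transcription factor gene of progenitors. S100a11, Olfm4, Krt18, Cd24a and Gpx2 followed with 0.28 to 0.25. With Pearson correlations of log values without thinning, 6 of these 10 stayed among the highest 10, while Olfm4 and Ptma ranked 20 and 15. The lowest were Mt1 (−0.36) and Mt2 (−0.35), the metallothionein genes, Prap1 (−0.34), Fth1 (−0.33), a ferritin gene, and Fabp1 (−0.33). For Slc12a2 the correlation was 0.10, 0.25, 0.39 and 0.48 at 0, 6, 15 and 24 h, and for Mt1 −0.14, −0.28, −0.44 and −0.58. At 0 h 2.08% of the cells had a thinned Clu UMI and at 24 h 41.2%. In crypt cells the mean correlations of 2251 genes lay between −0.10 and 0.13, but this mean includes the library without irradiation, where 3 of 1846 cells had a thinned Clu UMI. In the irradiated replicates 1 and 2 the correlations were 0.16 and 0.20 for Krt18, 0.15 and 0.21 for S100a11 and 0.21 and 0.16 for Krt19. In counts this sparse, correlations of this size are given as values only.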

How the data were processed

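Bulk RNA-seq of organoids (18 libraries) and single-cell RNA-seq (7 libraries) were used; chromatin accessibility and the Clu promoter were not analysed here. The deposited bulk values are FPKM per gene, in 1 table per condition. The submitters' processing notes name TopHat2 2.1.0, Cuffnorm 2.2.1, Cuffdiff 2.2.1, STARsolo and STAR 2.7.10a among others, with no role or order, and do not say which genome build stands behind each file. The deposited single-cell values are expected counts, that is UMIs per gene and cell of PIPseq libraries per the labels' protocols, of which up to 22.0% by library are not whole. All Clu values were whole.

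FPKM was analysed as log2(FPKM + 1) after leaving out genes whose mean was under 1 FPKM. The fit was limma 3.58.1 (trend, robust) in R 4.3.3, for each table alone, or over 12 libraries for a difference between effects. p-values were adjusted by Benjamini-Hochberg over all genes tested and called under 0.05. Cells under 500 UMIs, under 250 genes or over 20% mitochondrial UMIs were left out, and the rest rounded to whole UMIs and thinned to 2000 UMIs for shares, distributions, partners and companions. Clusters were made with scanpy 1.11.5 (2000 variable genes, 30 components, Leiden resolution 0.6) without Clu, and named only from marker lists with a median fold of at least 2. Scrublet called 0.286 to 1.56% of cells doublets, and these were kept. In the largest libraries calls this rare leave doublets possible. Intervals are 95% and cover counting error only. Both analyses were tested on simulated data.

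Named genes were the 10 bulk and cell companions, the partner genes, up to 4 members of each gene list with the largest mean change plus members called in opposite directions, and the 3 genes with the largest rise. Nuak2, Ccnd2 and the neighbours of Clu were named after their values had been seen. The members and lists were chosen with earlier results of these data known. Alternatives covered the pseudocount, filter, scaling, fit, replicate block and left-out replicates in bulk, and the depth, mitochondrial, doublet, thinning and resolution settings in cells.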

Additional observations from a re-analysis of the deposited data

Results flagged for a closer look

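The rise of Clu with TGFB1 differed in size between conditions, by a test of the difference itself. In D7 organoids the log2 change was 5.19 without and 4.37 with irradiation, a difference of −0.82 (SE 0.087, limma adjusted p 3.10e-06), and the rise was present in 3 of 3 TGFB1 libraries of each. In FPKM the mean gain was larger with irradiation, at 3777 against 1720 FPKM, so the sign of this difference depends on the scale. Between irradiated organoids at D11 and at D7 the log2 change differed by 1.26 (SE 0.13, limma adjusted p 2.01e-06). The tables of the conditions were deposited separately, and any scaling between them was not tested beyond the alternatives below.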

How the results depend on the processing

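The log2 change of Clu kept its direction and its call in each alternative run, 12 for each TGFB1 effect and 18 for each difference between effects. It ranged from 5.11 to 5.24 at D7 without irradiation, from 3.98 to 4.43 at D7 with it, and from 5.55 to 5.79 at D11. The differences ranged from −1.30 to −0.75 and from 1.18 to 2.16, with the far ends from quantile normalization, whose cause was not tested. Leaving out 1 replicate gave 5.12 to 5.24, 4.33 to 4.43, 5.55 to 5.70, −0.87 to −0.75 and 1.18 to 1.33. Same-numbered libraries correlated between −0.0856 and 0.213 in their deviations, so the numbers were not taken as pairs. With the replicate block the values stayed at 5.19, 4.37, 5.63, −0.82 and 1.26 and called genes numbered 7701, 8417, 7351, 5964 and 7396, against 7732, 8495, 7335, 6061 and 7387.

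In single cells, keeping cells with at least 5000 UMIs moved the level to 338 CPM at 15 h and 786 CPM at 24 h, and allowing at most 10% mitochondrial UMIs to 346 and 819 CPM, and the share at 15 h to 28.6%. Shares depend on depth by construction. Thinned to 1000 UMIs they were 0.989, 4.88, 18.5 and 30.9% in organoids from 0 to 24 h and 5.01 and 6.58% in irradiated crypts. Thinned to 4000 UMIs they were 3.73, 12.7, 35.7 and 53.1%, and 13.4 and 16.0%. Not thinned they were 6.28, 18.8, 46.1 and 70.5%, and 26.1 and 30.6%. The mean in cells with Clu without thinning, an alternative chosen after seeing the data, ranged over the libraries from 1 to 15.2 UMIs, against 1 to 3.09 thinned UMIs. The highest level of any cluster over all libraries was 1357 CPM in organoids and 2209 CPM at resolution 1. In crypts it was 113 CPM, and 67.8 CPM at resolution 0.3. The highest crypt cluster was not the same: it had 592 cells at resolution 0.6 and 44 cells at resolution 0.3. The latter has the size and level of the enterocyte-like cluster 7, so the place of the regenerative-like crypt cluster as highest depended on the resolution. The other 24 levels and 23 shares moved by less than their counting intervals.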
